A study of Arabidopsis thaliana with 18 samples.

Results

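In roots of Arabidopsis thaliana seedlings, 92 genes had no more than 0.5 times their wild-type level in the mutant rab8d-2, and stayed near or below that level with each of 4 second mutations. They were picked from mean TPM, the share of a library's transcripts scaled for transcript length and set to a fixed sum per library, by a fixed rule. A gene had to reach a mean of at least 1 TPM in wild type (WT). Its ratio of rab8d-2 to WT, with 0.1 TPM added to both, had to be at most 0.5. Its ratio of each double mutant to rab8d-2 had to be at most 1.25. Of 25537 genes, 881 passed the first pair of conditions, and the 92 genes are 10.4% of those. The other 789 lowered genes exceeded the limit of 1.25 in at least 1 double mutant.

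Polyadenylated RNA came from roots of untreated seedlings aged 4 days, with 3 libraries in each of 6 genotypes. All were grown in 16 h of light and 8 h of dark with 1% sucrose. The groups were WT (Col), the mutant rab8d-2, and 4 double mutants that carry rab8d-2 together with either atm-2, sog1-1, nac044-1 or nac085-1, so that 15 of the 18 libraries carry rab8d-2. The double mutants are written atm-2 rab8d-2 and so on. No single mutant of ATM, SOG1, NAC044 or NAC085 is among the groups, and by label each double mutant differs from rab8d-2 by its second mutation. The sample labels used here give no batch or harvest time. Growth, handling or time of harvest that differed between genotypes therefore cannot be told apart from the second mutation. Whole roots were used, and in such bulk samples fewer cells of a type and less RNA per cell cannot be told apart.

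RAB8D (AT4G20360) encodes the plastid translation elongation factor EF-Tu, which brings loaded tRNAs to the plastid ribosome. ATM is a kinase that is activated by DNA double-strand breaks. SOG1 is the plant transcription factor of the NAC family that ATM phosphorylates, and NAC044 and NAC085 are related NAC factors that act below SOG1 in the arrest of the cell cycle. The double mutants thus ask which changes of rab8d-2 depend on each factor of this DNA damage pathway, and the 92 genes are the lowered ones that no second mutation brought past the limit.

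RAB8D itself had a mean of 77.0 ± 2.09 TPM in WT (SD, n = 3, as for every ± after a mean TPM) and 10.1 ± 0.39 TPM in rab8d-2, although 1 label field calls the rab8d-2 libraries wild type. Their titles and descriptions were followed. ATM had 0.77 ± 0.03 TPM in atm-2 rab8d-2 and 7.56 ± 0.43 TPM in rab8d-2. NAC044 RNA was higher, at 144 ± 3.19 TPM, in the libraries labelled nac044-1 rab8d-2 than in rab8d-2, at 17.6 ± 0.49 TPM. The labels do not say how the nac044-1 allele acts on the RNA. NAC085 was 1.31 ± 0.60 TPM in nac085-1 rab8d-2 and 2.39 ± 0.62 TPM in rab8d-2. It was also 1.28 ± 0.36 TPM in sog1-1 rab8d-2, so its RNA does not set the nac085-1 libraries apart. SOG1 RNA lay between 18.8 and 22.0 TPM in all 6 group means and gives no check of the sog1-1 label. Root genes were present in WT, among them the radial-patterning factors SCR (a mean of 18 TPM, SD 0.46) and SHR (15.3 ± 0.75 TPM). Of 15 shoot and leaf epidermis genes, 3 reached 1 TPM in WT, namely AS1 (16.4 ± 0.42 TPM), PDF1 (3.9 ± 0.86 TPM) and GL3 (3.19 ± 0.25 TPM), and 5 were at 0, among them the shoot meristem genes STM and WUS. The sum of the 15 was 24.0 to 25.0 TPM in WT, 69.9 to 72.5 TPM in rab8d-2 and 31.2 to 45.6 TPM in the double mutants. PDF1, a protodermal gene, made up most of this with 46.1 ± 1.37 TPM in rab8d-2, and ATML1, an epidermal factor, was 0.32 ± 0.02 TPM in WT and 4.26 ± 0.68 TPM in rab8d-2. The part of these genes in the results was not tested.

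The WT means of the 92 genes ran from 1 to 497 TPM with a median of 12.4 TPM. A mean between 1 and 10 TPM was found for 42 of them, between 10 and 100 TPM for 37, and 100 TPM or more for 13. In rab8d-2 the median of the 92 was 41.9% of the WT level and the highest was 49.7%. The median percentage of WT was 28.7% in atm-2 rab8d-2, 35.5% in sog1-1 rab8d-2, 35.7% in nac044-1 rab8d-2 and 28.7% in nac085-1 rab8d-2. These values chose the genes and are given as a description. For 82 of the 92, every rab8d-2 library lay below every WT library, against 30.4% of all genes with at least 1 TPM in WT. For 81 of the 92, all 15 libraries with rab8d-2 lay below all 3 WT libraries, against 11.1% of all such genes. The test of rab8d-2 against WT called all 81 of the 92 genes that entered it lower, against 32.9% of all genes tested. Nothing is read from these 3 counts, since the rule used that contrast.

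**Figure D1:**
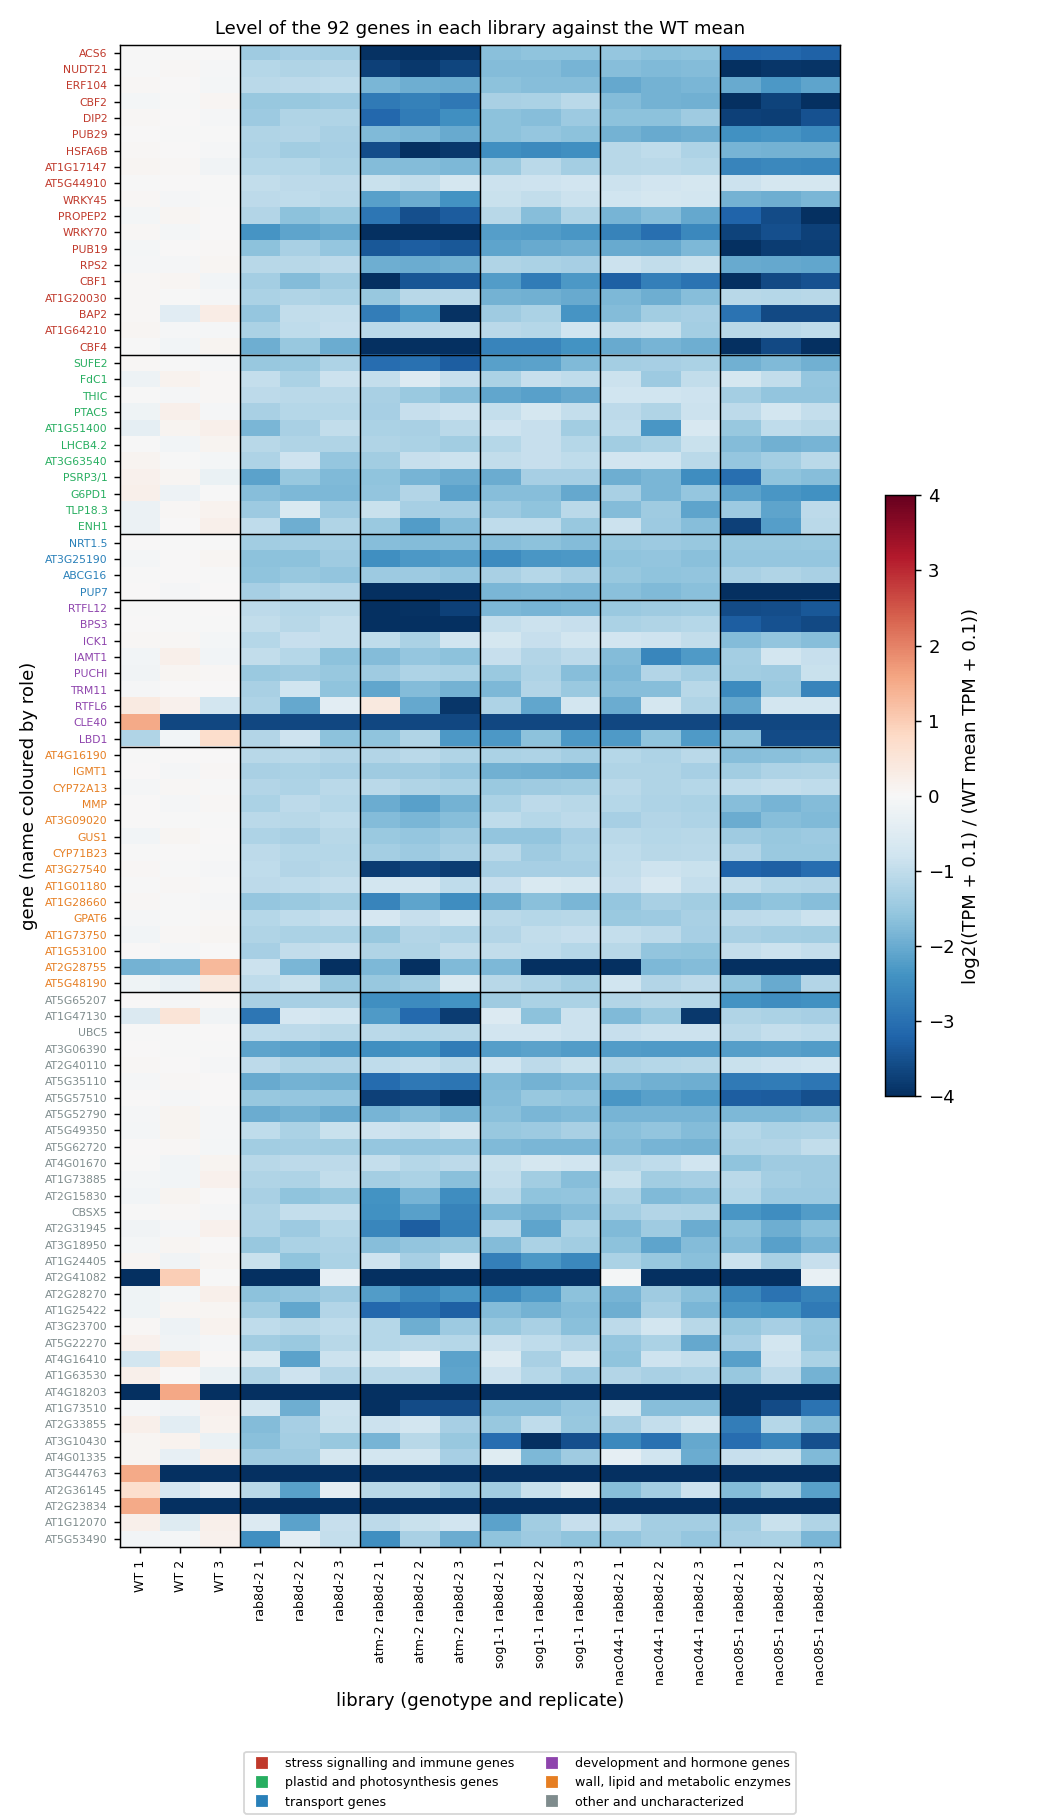
Heat map of the 92 genes (rows, grouped and coloured by role) in the 18 libraries (columns). Colour is log2 of TPM + 0.1 over the WT mean TPM + 0.1. Nearly all genes are blue in the 15 columns with rab8d-2, and many of the uppermost rows, the stress signalling and immune genes, are darkest in the 3 atm-2 rab8d-2 and the 3 nac085-1 rab8d-2 libraries.

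The rule sets only an upper limit for a double mutant, which could lie anywhere below it. With the ratio of a double mutant to rab8d-2 taken as in the rule, the median over the 92 genes was 0.802 in atm-2 rab8d-2, 0.923 in sog1-1 rab8d-2, 0.960 in nac044-1 rab8d-2 and 0.750 in nac085-1 rab8d-2. A ratio of 0.5 or less was found for 26 of the 92 in atm-2 rab8d-2, where 4.95% of all genes with at least 1 TPM in WT had one. It was found for 26 in nac085-1 rab8d-2 (3.78% of all such genes), for 6 in sog1-1 rab8d-2 (1.24%) and for 1 in nac044-1 rab8d-2 (0.827%). The genes at 0.5 or less in both atm-2 rab8d-2 and nac085-1 rab8d-2 numbered 19, and 18 of these were above 0.5 in the other 2 double mutants. In contrast, 57 of the 92 were above 0.5 in all 4 double mutants, and 26 stayed between 0.8 and 1.25 in all 4. The rule used these ratios, so they describe the 92 genes and nothing is read from their counts against those of all genes.

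**Figure D2:**
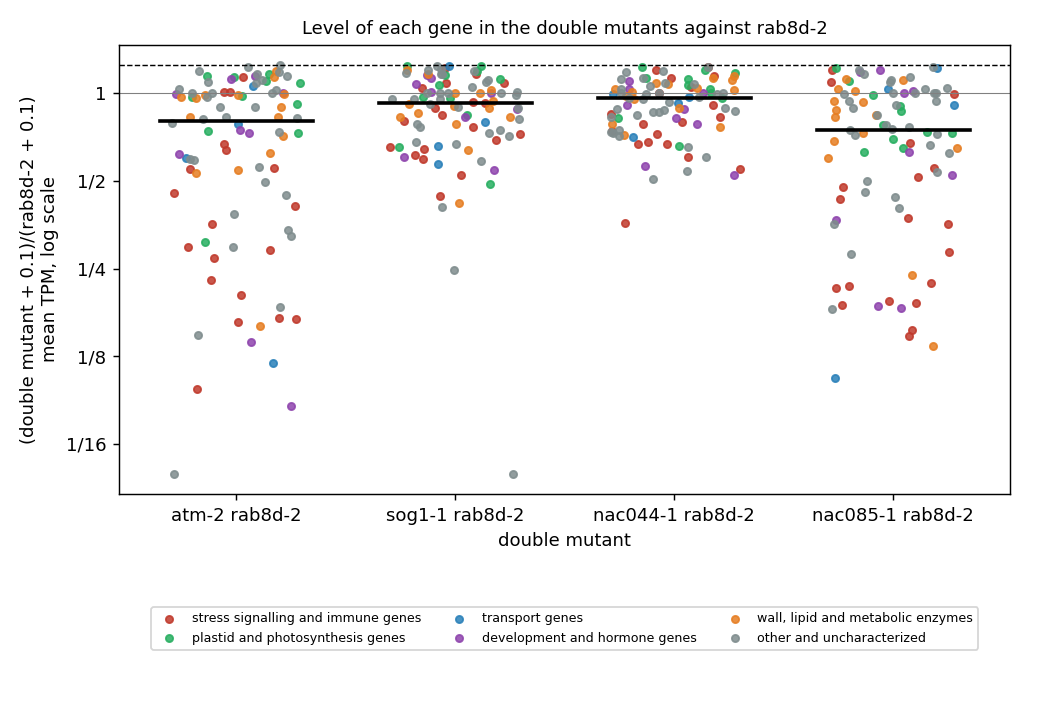
Ratio of mean TPM in each double mutant to that in rab8d-2 (0.1 TPM added to both, log scale) for each of the 92 genes, coloured by role. Black bars are medians, the dashed line is the rule's limit of 1.25 and the grey line is 1. A tail of genes below 0.5 is seen in atm-2 rab8d-2 and nac085-1 rab8d-2, with 26 genes in each, and the lowest point in atm-2 rab8d-2 and sog1-1 rab8d-2 is AT2G41082, which rests on 3 counts in WT.

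Genes of stress signalling and immunity were the largest named group, with 19 of the 92. Their median ratio to rab8d-2 was 0.357 in atm-2 rab8d-2 and 0.355 in nac085-1 rab8d-2, but 0.804 in sog1-1 rab8d-2 and 0.795 in nac044-1 rab8d-2. These genes are described first. Differences between double mutants were tested with edgeR's quasi-likelihood test with Benjamini-Hochberg adjustment over the 19981 genes tested, and each such difference is a log2 fold change ± its standard error with 3 libraries in each genotype.

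ACS6 (AT4G11280) makes ACC, the precursor of ethylene, and is a target of the stress kinase MPK6. Its level was 441, 446 and 457 TPM in the 3 WT libraries and 168, 179 and 174 TPM in rab8d-2. The double mutants had 29.1, 27.1 and 28.8 TPM with atm-2, 142, 148 and 148 TPM with sog1-1, 153, 144 and 148 TPM with nac044-1 and 49.8, 50.7 and 47.7 TPM with nac085-1. Levels with atm-2 and nac085-1 thus lay far below rab8d-2 and did not overlap with those of the other 2 double mutants, which lay just below rab8d-2. The log2 difference of sog1-1 rab8d-2 against atm-2 rab8d-2 was 2.43 ± 0.04 (adjusted p = 7.0e-44), and that of nac085-1 rab8d-2 against nac044-1 rab8d-2 was -1.58 ± 0.03 (adjusted p = 1.3e-37). ACS6 was also lower with atm-2 than with nac085-1, by a factor of 1.74 (adjusted p = 3.2e-21).

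NUDT21 (AT1G73540), a nudix hydrolase, is one of a family of enzymes that cleave nucleoside diphosphates linked to another group. Its WT level was 433, 448 and 425 TPM, and rab8d-2 had 197, 190.0 and 192 TPM. It was 29.9 to 34.2 TPM with atm-2 and 27.5 to 29.1 TPM with nac085-1, against 121 to 129.8 TPM with sog1-1 and 129 to 133 TPM with nac044-1. The 2 pairs of double mutants did not overlap, with a log2 difference of -2.23 ± 0.05 for nac085-1 against sog1-1 (adjusted p = 8.6e-38). Between sog1-1 and nac044-1 the difference of -0.03 ± 0.04 did not pass the test (adjusted p = 0.59).

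The CBF factors, which bind the C-repeat element of cold-responsive promoters, had 3 genes among the 92. CBF2 (AT4G25470) was at 90.2, 94.8 and 102 TPM in WT and 33.5, 33.2 and 34.7 TPM in rab8d-2. With sog1-1 it was 38.6, 40.04 and 44.8 TPM and with nac044-1 28.4, 25.7 and 25.03 TPM, but 13.4, 14.7 and 13.2 TPM with atm-2 and 5.91, 7.22 and 5.66 TPM with nac085-1. CBF2 therefore differed between every pair of double mutants, and nac085-1 rab8d-2 was the lowest. Its log2 difference of nac085-1 against sog1-1 was -2.78 ± 0.09 (adjusted p = 2.4e-29) and of nac085-1 against atm-2 -1.14 ± 0.12 (adjusted p = 5.0e-11). CBF1 (AT4G25490) was 9.57 to 10.9 TPM in WT and 3.08 to 4.02 TPM in rab8d-2, and 0.48 to 0.89, 1.42 to 2.11, 0.98 to 1.47 and 0.54 to 0.83 TPM with atm-2, sog1-1, nac044-1 and nac085-1 in that order. The mean ratio of CBF1 to rab8d-2 over the 4 double mutants was 0.332. CBF4 (AT5G51990), the member of the family known for its response to drought, had 5.23 to 6.15 TPM in WT and 1.35 to 1.93 TPM in rab8d-2. It was listed at 0, 0.09 and 0.09 TPM in the 3 atm-2 rab8d-2 libraries and at 0.09, 0.37 and 0 TPM in those with nac085-1, while the ranges were 0.82 to 1.0 TPM with sog1-1 and 1.32 to 1.5 TPM with nac044-1. CBF1 and CBF2 belong to a cluster of related genes. Their estimated counts were whole numbers in all 18 libraries, so no fractional split of reads between copies was seen.

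WRKY70 (AT3G56400), a transcription factor that acts between salicylate and jasmonate signalling, had one of the lowest ratios of rab8d-2 to WT. It was 23.4, 21.8 and 23.2 TPM in WT and 4.36, 5.19 and 5.55 TPM in rab8d-2, a 4.46-fold difference in the rule's ratio. With atm-2 it was 0.85, 0.85 and 1.12 TPM, with nac085-1 1.65, 1.89 and 1.63 TPM, with sog1-1 4.84, 4.73 and 4.5 TPM and with nac044-1 3.51, 2.73 and 3.75 TPM. All 6 comparisons between double mutants passed the test for WRKY70, with atm-2 lowest and sog1-1 highest. WRKY45 (AT3G01970), a factor linked to phosphate starvation, was 38.7 to 41.1 TPM in WT and 18.7 to 19.8 TPM in rab8d-2. It stayed at 19.9 to 21.7 TPM with sog1-1 and 22.6 to 24.3 TPM with nac044-1 and was 7.48 to 9.99 TPM with atm-2 and 10.2 to 11.2 TPM with nac085-1.

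PROPEP2 (AT5G64890) is the precursor of a danger peptide that is sensed by the PEPR receptors. It was 29.8, 33.2 and 32.04 TPM in WT and 13.9, 10.1 and 11.02 TPM in rab8d-2. The level was 4.22, 2.67 and 3.06 TPM with atm-2 and 3.34, 2.55 and 1.7 TPM with nac085-1, with no overlap with sog1-1 (14.6, 9.7 and 13.8 TPM) or nac044-1 (8.61, 9.63 and 7.62 TPM). The difference between the double mutants with nac085-1 and atm-2 did not pass the threshold for PROPEP2 (log2 -0.37 ± 0.30, adjusted p = 0.3). Other immune genes also had lower means with atm-2 and nac085-1 than with sog1-1 and nac044-1. PUB19, a U-box ubiquitin ligase, was 6.65 to 8.51 TPM in rab8d-2, 1.9 to 2.05 TPM with atm-2 and 1.14 to 1.44 TPM with nac085-1, against 4.83 to 5.39 TPM with sog1-1 and 5.0 to 6.0 TPM with nac044-1. RPS2, an intracellular receptor that detects the bacterial effector AvrRpt2, was 5.71 to 6.04 TPM in rab8d-2, 3.09 to 3.27 TPM with atm-2 and 2.92 to 3.01 TPM with nac085-1, against 4.96 to 5.43 TPM with sog1-1 and 6.31 to 6.81 TPM with nac044-1. For BAP2, a partner of the membrane protein BON1, the same levels were 2.13 to 3.23, 0.32 to 1.16 and 0.43 to 0.74 TPM, against 1.16 to 2.62 and 1.85 to 2.5 TPM, so that 1 library with sog1-1 reached the range of atm-2.

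Not every gene of the group had that grouping of the double mutants. HSFA6B (AT3G22830), a heat shock factor linked to abscisic acid, was 19.2, 17.1 and 17.7 TPM in rab8d-2 and 20.8, 22.2 and 19.1 TPM with nac044-1. It was 12.2, 12.1 and 12.1 TPM with nac085-1, 8.09, 7.6 and 8.1 TPM with sog1-1 and 3.71, 2.19 and 2.97 TPM with atm-2. No pair of double mutants overlapped for HSFA6B, and its log2 difference of nac044-1 against atm-2 was 2.80 ± 0.10 (adjusted p = 1.1e-28). ERF104 (AT5G61600), an ethylene response factor that is released from MPK6 during immune signalling, was 164 to 179 TPM in WT and 81.3 to 84.4 TPM in rab8d-2. It lay at 43.2 to 48.3, 52.3 to 54.6, 41.6 to 48.2 and 35.3 to 42.9 TPM with atm-2, sog1-1, nac044-1 and nac085-1, below rab8d-2 in all 4. AT1G20030, a thaumatin-like protein of the pathogenesis-related class, showed the opposite order, with 1.99 to 2.19 TPM with sog1-1 and 2.1 to 2.49 TPM with nac044-1 against 2.88 to 3.89 TPM with atm-2 and 3.76 to 3.86 TPM with nac085-1. AT5G44910, of the TIR domain family, was 19.4 to 20.3 TPM in rab8d-2 and between 20.6 and 24.98 TPM in the 12 double-mutant libraries. None of the 6 comparisons between double mutants called it.

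Among the development genes, BPS3 and RTFL12 each differed several-fold between double mutants. BPS3 (AT4G01360), a relative of BYPASS1, which is known for restraining a root-derived signal, was 34.8, 33.7 and 34.1 TPM in WT and 17.3, 15.8 and 17.6 TPM in rab8d-2. It was 1.37, 1.26 and 1.37 TPM with atm-2 and 3.36, 2.99 and 2.69 TPM with nac085-1, but 17.8, 18.96 and 17.96 TPM with sog1-1 and 14.3, 14.9 and 15.4 TPM with nac044-1. The level with sog1-1 was 14.2-fold that with atm-2 (log2 3.83 ± 0.11, adjusted p = 6.8e-32), and the level with nac085-1 was 2.25-fold that with atm-2 (adjusted p = 2.1e-07). RTFL12 (AT4G13395) is one of the ROTUNDIFOLIA-like small proteins that limit cell proliferation when overexpressed. Its levels were 105 to 108 TPM in WT, 48.2 to 51.8 TPM in rab8d-2, 6.11 to 7.9 TPM with atm-2, 29.4 to 30.7 TPM with sog1-1, 37.6 to 40.1 TPM with nac044-1 and 8.79 to 9.97 TPM with nac085-1. All 4 double mutants lay below rab8d-2 for RTFL12, and all 6 comparisons between them passed the test.

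Other genes of development and hormones differed in other ways. ICK1, an inhibitor of cyclin-dependent kinases, was 15.6 to 17.01 TPM in WT, 7.42 to 8.67 TPM in rab8d-2 and 4.84 to 5.5 TPM with nac085-1. It was lower with nac085-1 than with each of the other 3, with log2 differences from -0.68 ± 0.13 against atm-2 to -0.97 ± 0.12 against sog1-1 (adjusted p = 1.5e-05 and 3.0e-09). IAMT1, which methylates the auxin indole-3-acetic acid, was lower with nac044-1 (0.84 to 1.63 TPM) than with sog1-1 (2.45 to 2.9 TPM), a log2 difference of -1.26 ± 0.23 (adjusted p = 6.7e-06). PUCHI, an AP2-type factor of early lateral root primordia, was 3.02 to 3.55 TPM in WT and 1.12 to 1.19 TPM in rab8d-2, and no comparison between double mutants called it.

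Transport genes were 4 of the 92. NRT1.5 (AT1G32450), which loads nitrate into the xylem of roots, had the highest WT mean of all 92 genes. Its level was 504, 491 and 497 TPM in WT, 188, 194 and 194 TPM in rab8d-2, 153, 149 and 148 TPM with atm-2, 153, 158 and 149 TPM with sog1-1, 174, 182 and 176 TPM with nac044-1 and 175, 174 and 178 TPM with nac085-1. All 12 double-mutant libraries thus lay below rab8d-2. The ratios to rab8d-2 were 0.781 with atm-2, 0.798 with sog1-1, 0.922 with nac044-1 and 0.914 with nac085-1. Although 5 of the 6 comparisons between double mutants passed the test, the widest was 1.17-fold. PUP7 (AT4G18197), a purine permease, was at the other extreme. It was 29.9, 28.9 and 30.1 TPM in WT, 11.8, 13.2 and 13.2 TPM in rab8d-2, 1.4, 1.47 and 1.39 TPM with atm-2 and 1.28, 1.19 and 1.28 TPM with nac085-1, against 8.29, 8.52 and 8.21 TPM with sog1-1 and 9.16, 8.67 and 9.24 TPM with nac044-1. Of the 92 genes whose log2 CPM averaged 1 or more, PUP7 had the largest negative difference for nac085-1 against sog1-1 (log2 -2.80 ± 0.11, adjusted p = 3.8e-26) and against nac044-1 (log2 -2.84 ± 0.11, adjusted p = 1.1e-26). Against nac044-1, CBF4 and AT1G73510, both with fewer counts, had larger ones, of -3.09 ± 0.50 (adjusted p = 7.7e-07) and -2.93 ± 0.68 (adjusted p = 2.2e-04). AT4G18203, also among the 92, overlaps PUP7 on the other strand, and reads of the pair cannot be told apart without strand.

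The vacuolar iron transporter family gene AT3G25190 grouped the double mutants in another way. It was 21.2 to 24.6 TPM with atm-2 and 20.2 to 23.2 TPM with sog1-1, against 36.1 to 38.5 TPM with nac044-1 and 39.8 TPM in all 3 libraries with nac085-1, which were at the rab8d-2 level of 36.5 to 42.5 TPM. ABCG16, an ABC transporter, lay near the limit of the rule, with 42.2 to 43.6 TPM in WT, 13.9 to 14.9 TPM in rab8d-2 and 17.1 to 19.3 TPM with sog1-1.

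**Figure D3:**
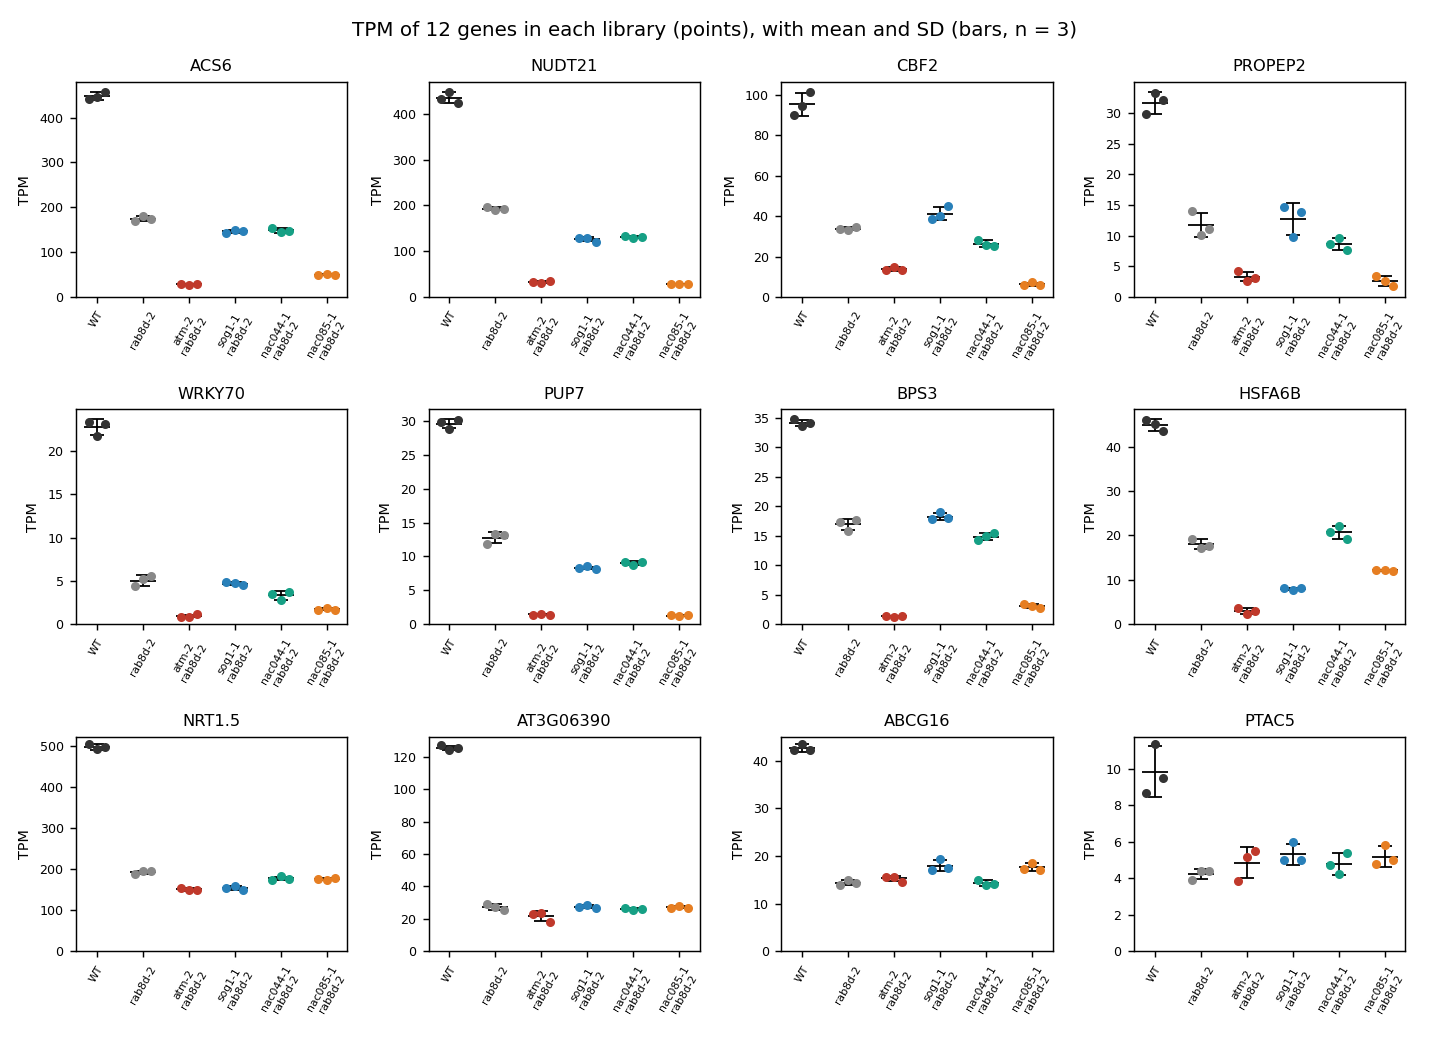
TPM (linear axes from 0) of 12 of the 92 genes in each of the 18 libraries. Points are libraries, and bars give mean and SD of 3. In the first 2 rows except HSFA6B the atm-2 rab8d-2 and nac085-1 rab8d-2 libraries lie below all those with sog1-1 and nac044-1. In the lowest row the 4 double mutants differ less from one another, as for NRT1.5 with 148 to 182 TPM.

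Plastid and photosynthesis genes were 11 of the 92. The medians of their ratios to rab8d-2 were 0.977 with atm-2, 1.07 with sog1-1, 1.07 with nac044-1 and 0.781 with nac085-1, and 6 of the 11 were called in none of the 6 comparisons between double mutants, as were 18.5% of the 81 tested genes of the 92 and 11.5% of all genes tested. Of these 6, ENH1, TLP18.3, AT1G51400 and PSRP3/1 had only 59 to 117 counts summed over the 3 WT libraries, so small differences were not detectable at this depth. Examples of these 6 are PTAC5, a protein of the plastid transcription complex, and FdC1, a ferredoxin-like protein. PTAC5 was 8.66, 11.4 and 9.48 TPM in WT and 3.93, 4.41 and 4.41 TPM in rab8d-2, and its 12 double-mutant libraries lay between 3.87 and 5.97 TPM, overlapping rab8d-2. TLP18.3 and ENH1, proteins tied to photosystem II, and PSRP3/1, of the plastid ribosome, had WT ranges of 1.56 to 2.06, 1.03 to 1.41 and 3.18 to 4.31 TPM, so these root levels were low throughout.

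LHCB4.2 (AT3G08940), an antenna protein of photosystem II, was 7.85, 7.21 and 8.55 TPM in WT, 3.63, 3.38 and 3.35 TPM in rab8d-2 and 2.28, 2.02 and 2.1 TPM with nac085-1. It was lower with nac085-1 than with sog1-1 by -0.87 ± 0.17 on the log2 scale (adjusted p = 3.0e-05). Of 52 antenna and photosystem genes in the table, 28 were lowered in rab8d-2, and LHCB4.2 was the only one of these 28 that stayed under the limit in all 4 double mutants. THIC, which makes the pyrimidine part of thiamine, was 9.48 to 10.3 TPM in WT and 4.59 to 4.75 TPM in rab8d-2. It was lowest with sog1-1, at 2.1 to 2.3 TPM, and 1.25 ± 0.10 higher on the log2 scale with nac044-1 (adjusted p = 1.5e-14). SUFE2, which activates sulfur transfer for iron-sulfur clusters, was 13.7 to 16.6 TPM in rab8d-2 and 3.91 to 4.9 TPM with atm-2, the lowest of the double mutants, with 10.3 to 11.5 TPM with nac085-1 (log2 difference 1.25 ± 0.12, adjusted p = 4.6e-12).

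Enzymes of the wall, lipids and metabolism were 15 of the 92, with median ratios to rab8d-2 of 0.897, 0.906, 1.02 and 0.845 with atm-2, sog1-1, nac044-1 and nac085-1. AT3G27540, of a family of N-acetylglucosaminyltransferases, stood apart from the rest. It was 24.99, 24.3 and 23.6 TPM in WT and 11.9, 10.7 and 11.3 TPM in rab8d-2, then 1.67, 1.81 and 1.67 TPM with atm-2 and 2.52, 2.43 and 2.87 TPM with nac085-1, against 9.61, 9.7 and 9.63 TPM with sog1-1 and 12.3, 13.5 and 13.1 TPM with nac044-1. Its log2 difference of nac044-1 against atm-2 was 2.91 ± 0.10 (adjusted p = 3.3e-30). The papain-like protease AT4G16190 was 378 to 385 TPM in WT, 169.6 to 179 TPM in rab8d-2 and 117 to 124 TPM with nac085-1, where it was lowest.

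IGMT1, a methyltransferase of indole glucosinolates with near-identical copies, was 227 to 243 TPM in WT, 93.5 to 97.6 TPM in rab8d-2 and 59.5 to 61.96 TPM with sog1-1, below the other 3 double mutants. CYP72A13 and CYP71B23 were the cytochrome P450 genes among the 92, out of 21 lowered in rab8d-2 and 202 in the table. GPAT6, an acyltransferase of cutin synthesis, was 9.55 to 10.9 TPM in rab8d-2, 11.1 to 13.1 TPM with atm-2 and 7.4 to 8.44 TPM with nac044-1, a log2 difference of -0.66 ± 0.07 for nac044-1 against atm-2 (adjusted p = 8.1e-11). It was the only one of 13 lowered suberin and cuticular lipid genes among the 92.

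Of the 34 genes with another or no known role, several were abundant. AT3G06390, of the UPF0497 family, had the lowest ratio of rab8d-2 to WT among those of the 92 genes with more than 1 count in WT. It was 127, 124 and 125 TPM in WT and 28.97, 27.6 and 25.4 TPM in rab8d-2, and 22.8, 23.8 and 18.04 TPM with atm-2, 27.3, 28.3 and 26.6 TPM with sog1-1, 26.6, 25.8 and 25.8 TPM with nac044-1 and 26.98, 27.7 and 26.8 TPM with nac085-1. The 15 libraries with rab8d-2 thus stayed within 18.04 to 28.97 TPM, far below WT. AT5G52790, a CBS domain protein, was 52.98 to 59.2 TPM in WT, 13.6 to 14.7 TPM in rab8d-2 and 14.7 to 17.3 TPM in the double mutants. AT5G65207 and AT5G35110, both uncharacterized, were lower with atm-2 and nac085-1 than with sog1-1 and nac044-1, as was ACS6. AT5G65207 was 160.5 to 165 TPM in rab8d-2, 70.6 to 76.2 TPM with atm-2 and 72.2 to 76.9 TPM with nac085-1, against 149.9 to 167 TPM with sog1-1 and 178 to 184 TPM with nac044-1. For AT5G35110 the levels were 22.9 to 24.6, 10.8 to 12.6 and 12.3 to 13.4 TPM, against 25.1 to 26.9 and 24.1 to 26.1 TPM.

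No comparison of one double mutant with another was a condition of the rule, but the rule shapes all of them. It removed lowered genes that rose past 1.25 times rab8d-2 in any double mutant and kept those that fell. A wide gap between 2 double mutants therefore means that one lies well below rab8d-2. The counts by direction describe the 92 genes, and nothing is read from them against those of all genes. Of the 92 genes, 81 passed the filter on low counts and were tested, and 11 had too few counts. With sog1-1 against atm-2, 43 of the 81 were higher and 10 lower, against 27.8% and 30.0% of all genes tested. With nac044-1 against atm-2, 40 were higher and 8 lower, against 31.8% and 33.9% of all genes. With nac085-1 against sog1-1, 9 were higher and 38 lower (28.0% and 28.5% of all genes), and against nac044-1, 9 were higher and 44 lower (29.3% and 29.2%). The other lowered genes, which the limit removed, had 760 tested. Of these, 251 were higher and 261 lower with sog1-1 against atm-2, and 136 higher and 425 lower with nac044-1 against atm-2. For nac085-1 the counts were 302 higher and 224 lower against sog1-1, and 442 higher and 99 lower against nac044-1.

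The remaining pairs were more even. With nac085-1 against atm-2, 23 were higher and 16 lower (24.3% and 24.0% of all genes), and with nac044-1 against sog1-1, 15 were higher and 19 lower (26.1% each way). The 6 comparisons share libraries and are not independent. At least 1 of the 6 called 66 of the 81 genes, or 81.5%, and 88.5% of all genes, and nothing is read from this either.

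**Figure D4:**
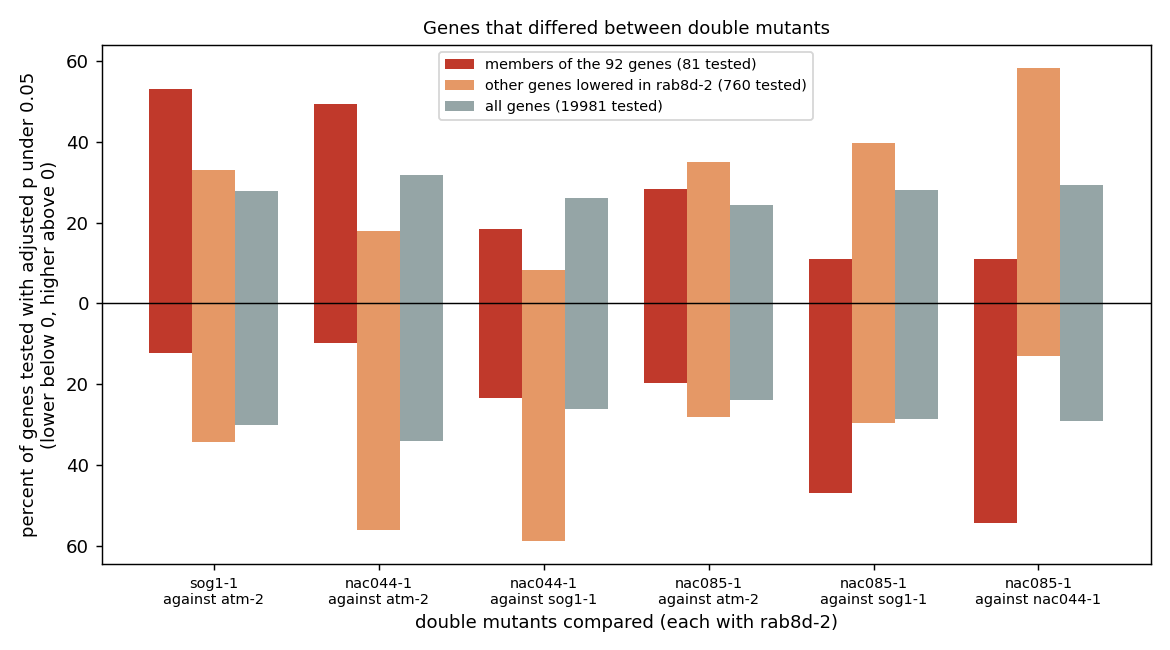
Percentage of the tested genes called higher (above 0) or lower (below 0) in each of the 6 comparisons between double mutants, by edgeR's quasi-likelihood test at an adjusted p under 0.05. Bars show the 81 tested of the 92 genes, the tested genes among the other lowered genes, and all 19981 genes tested. The 92 genes lean to higher levels with sog1-1 and nac044-1 than with atm-2 and to lower levels with nac085-1 than with either, while the bars of all genes are nearly even. The rule's limit on the double mutants shapes this lean.

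Counted gene by gene, 27 of the 81 (33.3%) were lower both with atm-2 and with nac085-1 than with each of sog1-1 and nac044-1, with all 4 comparisons past the threshold. Of all genes tested, 12.7% were. The opposite order, sog1-1 and nac044-1 each lower, was found for 2 of the 81, AT1G20030 and AT5G62720, and for 11.6% of all genes. The other 4 ways of setting a pair of double mutants below the other pair gave 4 genes for atm-2 with sog1-1 (3.35% of all genes), 3 for atm-2 with nac044-1 (1.90%), 0 for nac044-1 with nac085-1 (5.60%) and 0 for sog1-1 with nac085-1 (0.986%). This way of counting was chosen after the values had been seen, and all 6 pairings are given. In TPM, all 6 libraries with atm-2 or nac085-1 lay below all 6 with sog1-1 or nac044-1 for 25 of the 92 genes (27.2%) and for 11.2% of all genes with at least 1 TPM in WT. The rule's limit on the double mutants shapes these counts too, so they describe the 92 genes and nothing is read from them against all genes.

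By role, the 27 genes were 13 of the 19 stress signalling and immune genes, 2 of the 6 tested development and hormone genes (RTFL12 and BPS3), 1 of the 4 transport genes (PUP7), 4 of the 14 tested enzymes, 7 of the 27 tested genes of other or unknown role, and none of the 11 plastid and photosynthesis genes. The roles were assigned by hand with these values known, so the counts by role carry no test.

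Fast stress genes outside the 92 were low in the same double mutants. A list of 27 genes known to respond quickly to touch and other stimuli (calmodulin-like, WRKY, ZAT, ERF and CBF genes) held 5 that were lowered in rab8d-2, and ERF104, CBF1 and CBF2 among these 5 are in the 92. For the 24 others of the list the summed level was 3792 to 3891 TPM in WT, 3111 to 3123 TPM in rab8d-2, 2627 to 2659 TPM with sog1-1 and 2902 to 3005 TPM with nac044-1, but 715 to 720.1 TPM with atm-2 and 924 to 949.7 TPM with nac085-1. At least 23 of the 24 reached 1 TPM in every genotype, and none was at 0. With sog1-1 against atm-2, 18 of the 24 were higher and 4 lower (27.8% and 30.0% of all genes tested). With nac085-1 against nac044-1, 5 were higher and 17 lower (29.3% and 29.2% of all genes tested).

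Most genes of jasmonate synthesis and response were also lower with atm-2 and nac085-1, and none of them is in the 92. With sog1-1 against atm-2, 20 of the 25 tested were higher and 3 lower (27.8% and 30.0% of all genes tested). With nac085-1 against nac044-1, 6 were higher and 16 lower (29.3% and 29.2% of all genes tested). Means in the opposite order were found among others for LOX1, a lipoxygenase, with 82.4 TPM with atm-2 and 67.8 TPM with nac085-1 against 51.7 TPM with sog1-1 and 38.3 TPM with nac044-1. The summed level of 27 such genes was 2873 to 2891 TPM in rab8d-2, 2739 to 2777 TPM with sog1-1 and 3203 to 3333 TPM with nac044-1, and 916 to 945 TPM with atm-2 and 1064 to 1098 TPM with nac085-1. Between 23 and 25 of the 27 reached 1 TPM in each genotype, and 0 to 2 were at 0. The part of these list-wide levels in the differences among the 92 genes was not tested. Cold and dehydration effectors, among them KIN2 and LTI78, went the other way from the CBF genes among the 92. DREB1A (AT4G25480), a fast stress gene lowered in rab8d-2 but outside the 92, did not follow those CBF genes. It was 0.76 ± 0.09 TPM in rab8d-2, 4.72 ± 0.09 TPM with atm-2 and 1.37 ± 0.38 TPM with nac085-1. With sog1-1 it was 1.33 ± 0.33 TPM and with nac044-1 0.31 ± 0.18 TPM. With sog1-1 against atm-2, 1 of the 12 tested cold and dehydration effectors was higher and 7 lower (27.8% and 30.0% of all genes). The sum of 15 such effectors was 3901 to 4114 TPM in rab8d-2, 5207 to 5449 TPM with sog1-1 and 5353 to 5391 TPM with nac044-1, and 8275 to 8456 TPM with atm-2 and 9359 to 9709 TPM with nac085-1. Morning clock genes grouped the libraries differently again: 9 of them summed to 229 to 235 TPM with atm-2 and 222 to 229 TPM with sog1-1, and to 43.4 to 59.4 TPM in the other 4 genotypes.

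Known pathway lists covered few of the 92 genes. Of 42 lists, 14 held at least 1 of them, and 15 of the 92 were in any list. WRKY factors had 4 lowered genes among 63, of which WRKY45 and WRKY70 are in the 92. The xylem wall list and the amino acid transporter list, with 13 and 11 lowered genes, had none. The 92 genes lay on all 5 chromosomes (25, 13, 17, 17 and 20 genes on chromosomes 1 to 5), and by reference gene order the only close neighbours were PUP7 with AT4G18203, and NUDT21 with AT1G73510, with 1 gene between them. AT1G73510, uncharacterized, had 2.06 to 2.57 TPM in WT and 0.52 to 1.34 TPM in rab8d-2, and at most 0.21 TPM in any library with atm-2 or nac085-1. Another gene overlaps 18 of the 92 on the other strand and 3 on the same strand, and their reads may be shared.

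Membership changed with the unit for a part of the genes: with CPM after TMM scaling in place of TPM the rule gave 77 genes, of which 69 are among the 92, and with 1 TPM in place of 0.1 TPM added to the ratios it gave 69, of which 60 are. Just inside the limit on the ratio of rab8d-2 to WT were ICK1 at 0.4996 and AT1G01180 at 0.498, and just outside were UPB1 at 0.501 and AT4G23493 at 0.506. The nearest genes to the limit of 1.25 were AT2G33855 (1.246) and ABCG16 (1.246) inside it and NCED3 (1.259) and TIN1 (1.259) outside it. In WT level the nearest were AT5G53490 at 1 TPM and LBD1 at 1.09 TPM inside and ER at 0.93 TPM and MS2 at 0.77 TPM outside. Of the 92 genes, 30 had a highest ratio between 1.15 and 1.25, and another 30 lowered genes lay between 1.25 and 1.35.

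Fewer than 30 counts over the 3 WT libraries stood behind 8 of the 92 genes. CLE40, a signalling peptide of the root meristem, and the uncharacterized AT4G18203, AT3G44763 and AT2G23834 each rest on 1 count in 1 WT library, with 0 counts in all other libraries. That count was listed at 3.43 to 7.59 TPM. AT2G41082 rests on 3 counts in WT. AT1G47130 is the uncharacterized gene with the widest scatter: it was 179, 382 and 245 TPM in WT and 36.3, 169 and 154 TPM in rab8d-2, from 48 counts in the 3 WT libraries, and WT overlapped the libraries with sog1-1. The other genes for which a library with rab8d-2 reached the lowest WT library were AT4G16410, AT2G36145, AT2G28755, LBD1 and RTFL6.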

How the data were processed

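The authors deposited 1 table of estimated counts, TPM and FPKM per gene and library, and RSEM 1.3.1 is named in the submitters' processing notes. No coordinates or sequences are printed, because the build, annotation, aligner and strand setting are not given in the sources used here. A RefSeq annotation matched 25462 of 25537 identifiers and was used for names, overlaps and gene order. Library totals were 20103634 to 20471203 counts.

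The genes were chosen from group means of the deposited TPM, and the genes, lists, roles and named-gene rule were chosen with earlier results of these data known. The named genes are those most abundant, most lowered, nearest a limit, in a list, or most different between double mutants; PUB19, RPS2, BAP2, CBF4, PUCHI, FdC1, TLP18.3, ENH1, AT2G41082, AT4G16410, AT2G36145, AT2G28755, RTFL6, AT1G51400, LOX1 and the shoot and epidermal genes were added after their values were seen. A few list entries matched another gene through a synonym (FDH, smB). FDH was left out of the 15 shoot and leaf epidermis genes and of their sum. No sum is given for the root list that held smB.

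Deposited estimated counts, of which 1.56% to 1.75% per library carry decimals, were rounded and tested in edgeR 4.0.16 (R 4.3.3): TMM scaling, the tool's filter on low counts, 1 mean per genotype over 18 libraries, and a quasi-likelihood test with Benjamini-Hochberg adjustment over 19981 genes (threshold 0.05). The script was tested on simulated counts. The deposited FPKM values served as an alternative. Common dispersion was 0.000566 (biological coefficient of variation 2.38%), and p-values measure the spread between libraries that the labels call biological replicates without more detail. Libraries of 1 genotype were compared in pairs, and their variance was divided by the variance due to counting, which gave ratios of 1.34 to 2.22. These ratios gave no ground to treat a library as a duplicate of another. They cannot tell libraries from separate plants from libraries made of 1 shared RNA pool, and this was not tested. Counts limit the precision of low genes.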

Additional observations from a re-analysis of the deposited data

How the results depend on the processing

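The rule gave 79 to 95 genes when each library was left out in turn, with 74 to 92 of them among the 92. FPKM gave 88 genes (86 shared), CPM after TMM scaling 77 (69 shared), 1 TPM added to the ratios 69 (60 shared) and a minimum of 5 TPM in WT 67 (67 shared). Of the 12 counts of genes higher or lower between double mutants, 11 stayed within 1.5 times under every alternative run: other scalings, no filter on low counts, DESeq2 1.42.0, a replicate block and each library left out. The exception was the 8 genes lower with nac044-1 than with atm-2, which were 4 with DESeq2, 5 without the second atm-2 rab8d-2 library and 4 without the second nac044-1 rab8d-2 library, a range of 4 to 8 over the left-out libraries. The 27 genes lower with atm-2 and nac085-1 than with both others, an alternative chosen after seeing the data, were 24 to 27 under all of them. The 36 differences between double mutants with the largest size in each comparison kept their direction and their call in all 432 recomputations. So did, in 143 recomputations added after seeing the data, 12 further differences given with a value (of ACS6, NUDT21, PROPEP2, ICK1, LHCB4.2, NRT1.5, CBF4 and AT1G73510).

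Replicate numbers did not pair the libraries: deviations from group means of libraries with the same number correlated by -0.09 to 0.05, and 7 of 18 libraries correlated best with their own number. With the replicate number as a block the counts were 43 higher and 10 lower for sog1-1 against atm-2, and the 27 genes above were again 27. Depth limits the 11 genes with too few counts to test.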
